A study of Mus musculus with 6 samples.

Results

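DNA replication and S-phase genes were followed in mouse lens epithelial cells (LECs) across the first day after a model of cataract surgery. The 41 genes come from a named list of replication factors that was drawn up with earlier results of these data known, though its rule uses no measured value. They make up 41 of the 24147 gene rows in the count tables. All animals were wild type C57BL/6 mice, 2 months old, with no transgene or drug. The lens fiber cells were taken out through an incision in the cornea, and the capsule with the LECs that stay on it was collected either immediately (0 h, 3 libraries) or 24 h later (24 h, 3 libraries). The same surgery was therefore done in both groups, and there is no group without surgery. RNA of each capsule sample was sequenced in bulk, in what the series describes as biological triplicate. The sources used here do not give the number of eyes or animals behind each library, so the p-values measure the spread between these samples only. The study asks how LECs respond to the surgery, because cells left on the capsule can grow over it and cloud vision again (posterior capsular opacification).

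DNA replication is prepared in G1, when the origin recognition complex, CDC6 and CDT1 load the MCM helicase onto DNA. At the start of S phase the helicase is switched on by CDC45, the GINS complex and MCM10, and primase, polymerases, the sliding clamp PCNA and its loader copy both strands. Many of these genes are transcribed under control of E2F factors when a resting cell re-enters the cycle. In the adult lens most epithelial cells are out of cycle, and the few that divide lie near the equator.

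The libraries held 8069314 to 10862573 counts and detected 16248 to 16962 genes each. Levels are given below as CPM, a gene's count relative to the library total, with the total scaled by TMM, a factor that evens out library composition, and always in the order of replicates 1, 2 and 3. Lens genes dominated the samples. Cryab and Pax6, the most abundant on the list of epithelial markers, had mean levels of 25173 and 455 CPM at 0 h. At 24 h they were at 11496 and 324 CPM. Whether these genes mark epithelial cells alone was not tested. Of 8 epithelial markers 3 were lower (Cryab, Foxe3 and Fgfr3) and 0 higher, and the log2 difference was above 0 for 2, Krt8 and Krt18. The fiber crystallins Crybb2 and Crygs were also abundant, and 9 of 9 fiber markers were lower at 24 h. Beside these and the marker counts below, 15.2% of all 13956 tested genes were called higher and 1817 genes lower. Other tissues were present. The summed CPM of 12 photoreceptor markers, Gnat1 among them, was 4048, 6626 and 2132 at 0 h and 3229, 5248 and 1161 at 24 h, with 0 of 12 called. Neutrophil markers, led by Csf3r and Cxcr2, summed to 7.42 to 12.1 CPM at 0 h and 90.4 to 157 CPM at 24 h. Of 12 with a row, 6 passed the filter on low counts, and 6 of 6 were higher. Among them S100a8, S100a9 and Retnlg had 0 to 2 counts per library at 0 h and passed only through their 24 h counts. The granule protease gene Elane had no count in any library. Monocyte and macrophage markers, led by Lyz2 and Csf1r, summed to 76.3 to 181 CPM at 0 h and 107 to 235 CPM at 24 h, with 3 of 11 higher and 3 of 11 lower. Lymphocyte markers, led by Cd8a and Cd3d, summed to 1.27 to 2.66 CPM and none passed the filter on low counts. Of the retinal pigment epithelium markers, led by Rlbp1 and Rgr, 4 of 6 were lower. Of the melanocyte markers, led by Dct and Tyrp1, 3 of 5 were higher. Their summed CPM was 124, 212 and 109 at 0 h and 1164, 115 and 758 at 24 h, with 24 h replicate 2 inside the 0 h range. Of the endothelial markers, led by Kdr and Cdh5, 2 of 5 were higher. Among the corneal markers Aldh3a1 was lower, while Krt5 was higher, at 1.3, 0.200 and 1.71 CPM at 0 h and 25.2, 0.637 and 34.3 CPM at 24 h. A row for the ribosomal RNA precursor, Rn45s, took 159330 CPM in 24 h replicate 1 and 26531 to 48911 CPM in the others.

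Of the 41 replication genes, 40 passed the filter on low counts and were tested, 12 were higher at 24 h than at 0 h and 0 were lower (edgeR quasi-likelihood test, Benjamini-Hochberg adjusted p under 0.05). The 12 were Cdt1, Mcm2, Mcm3, Mcm4, Mcm5, Mcm6, Pola2, Pold1, Pcna, Rfc2, Uhrf1 and Ung. They make up 30.0% of the tested members, where 15.2% of all 13956 tested genes were called higher. Called in either direction were 28.2% of all tested genes, of which 1817 genes were lower. At an unadjusted p under 0.05 the counts were 17 higher and 0 lower, and DESeq2 and limma-voom also called 0 lower. The median log2 fold change was 0.74 over the tested members and -0.03 over all tested genes. Of the 12 called genes, 10 rose at least 2-fold. Without 0 h replicate 2 the number called was 6 (Cdt1, Mcm3, Mcm5, Mcm6, Pold1 and Pcna), and without 24 h replicate 3 it was 9 and the members' median log2 fold change was 0.45.

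Levels in single libraries are those the calls were made from, so they are no separate support. In 18 of the 41 genes every 24 h library lay above every 0 h library, in 0 genes every 24 h library lay below, and in 23 the groups overlapped. Over all tested genes these arrangements were found in 22.9% and 21.8%. All 12 called genes were among the 18. The other 6 that did not overlap, Orc6, Mcm7, Mcm10, Cdc45, Prim1 and Chaf1a, were not called.

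**Figure D1:**
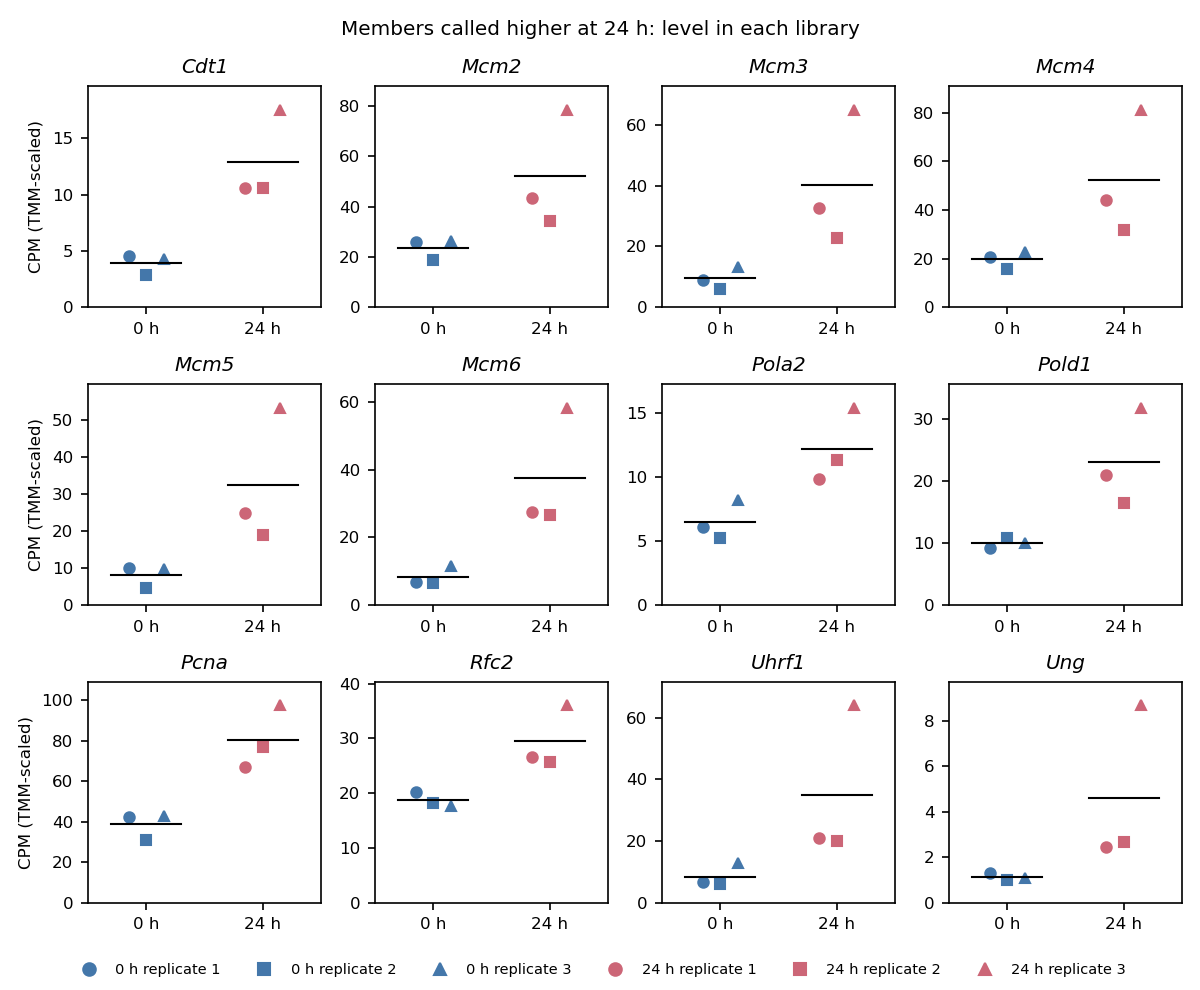
Each panel plots 1 of the 12 called genes, with the level in CPM (TMM-scaled, linear axis from 0) for the 3 libraries at 0 h (blue) and the 3 at 24 h (red); symbols mark the replicate number. In every panel the 24 h libraries lie above the 0 h libraries, and replicate 3 (triangle) is the highest at 24 h.

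Among the 4 licensing genes, Cdt1 rose. With 15.2% of all tested genes called higher, 1 call in so few genes does not set this role apart. Cdt1 (chromosome 8, 122568015 to 122573130, mm10) encodes the factor that brings the MCM complex to origins and is destroyed once S phase begins. It was at 4.51, 2.91 and 4.27 CPM at 0 h and at 10.6, 10.6 and 17.6 CPM at 24 h. The groups were well apart, and the change was 3.32-fold (log2 1.73 ± 0.32 SE, edgeR adjusted p = 0.00497). Cdc6, the ATPase that loads MCM together with CDT1, was at 0.401, 1.00 and 3.66 CPM at 0 h and at 2.56, 2.12 and 14.2 CPM at 24 h. Its groups overlapped, and 24 h replicate 3 stood far above the rest. The log2 difference was 1.93 with a 95% interval from -0.20 to 4.05 (edgeR adjusted p = 0.161), and without that library it was 0.50. Orc1, the large ATPase subunit of the origin recognition complex, was at 1.20, 3.31 and 2.68 CPM at 0 h and at 1.53, 3.72 and 4.76 CPM at 24 h, with overlapping groups (log2 0.48 ± 0.55 SE, edgeR adjusted p = 0.562). Orc6 was 1.44-fold higher on average and was not called (edgeR adjusted p = 0.189).

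Of the MCM2-7 genes, which encode the ring-shaped helicase, 5 of 6 rose, and in all 6 the times did not overlap. Over all tested genes 15.2% were called higher, and in 22.9% every 24 h library lay above every 0 h library. Mcm6 (chromosome 1, 128331591 to 128359656) was at 6.71, 6.51 and 11.5 CPM at 0 h and at 27.6, 26.8 and 58.5 CPM at 24 h. Mcm3 (chromosome 1, 20803014 to 20820213) was at 9.12, 6.01 and 13.3 CPM at 0 h and at 32.6, 22.9 and 65.0 CPM at 24 h. Mcm5 (chromosome 8, 75109528 to 75128439) was at 9.92, 4.51 and 9.64 CPM at 0 h and at 24.9, 18.9 and 53.4 CPM at 24 h. For these 3 genes the lowest 24 h library was above the highest 0 h library by a wide margin, and the folds were 4.59 (log2 2.20 ± 0.37 SE, edgeR adjusted p = 0.003), 4.26 (log2 2.09 ± 0.42, adjusted p = 0.00696) and 4.05 (log2 2.02 ± 0.44, adjusted p = 0.00994). Mcm4 (chromosome 16, 15623897 to 15637400) was at 20.7, 15.6 and 22.8 CPM at 0 h and at 44, 31.6 and 81.3 CPM at 24 h, a 2.66-fold rise (log2 1.41 ± 0.33, edgeR adjusted p = 0.0138). Mcm2 (chromosome 6, 88883474 to 88898780) was at 25.9, 18.9 and 26.2 CPM at 0 h and at 43.6, 34.4 and 78.6 CPM at 24 h, a 2.21-fold rise (log2 1.14 ± 0.30, edgeR adjusted p = 0.022). Both genes were apart at the 2 times, with 24 h replicate 3 highest. Mcm7 (chromosome 5, 138164589 to 138171862), which hosts the microRNAs Mir106b, Mir93 and Mir25, was at 14.5, 14.5 and 20.1 CPM at 0 h and at 22.3, 20.8 and 39.4 CPM at 24 h. The times did not overlap, but the 1.68-fold difference was not called (95% interval of the log2 value 0.12 to 1.38, edgeR adjusted p = 0.0773). Mcm2 was no longer called without 0 h replicate 1 (edgeR adjusted p = 0.0545) or without 0 h replicate 2 (0.0744), nor Mcm4 without 0 h replicate 2 (0.051), while Mcm3, Mcm5 and Mcm6 stayed called with any single library left out.

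Per kilobase of gene length the subunit genes were closer together at 24 h than at 0 h. Mean length-scaled levels in CPM per kilobase went from 7.02 to 15.5 for Mcm2, from 3.28 to 13.9 for Mcm3, from 5.50 to 14.6 for Mcm4, from 2.34 to 9.47 for Mcm5, from 2.84 to 12.97 for Mcm6 and from 6.84 to 11.5 for Mcm7. At 0 h Mcm2 and Mcm7 were the highest and Mcm5 and Mcm6 the lowest. The ratio of the highest to the lowest subunit was 3.31, 4.60 and 2.98 in the 0 h libraries and 1.78, 1.85 and 1.49 in the 24 h libraries (3.63 ± 0.855 against 1.71 ± 0.187, SD, n = 3 each). Every 24 h library was below every 0 h library, and the exact two-sided permutation p was 0.1, the smallest that 3 against 3 can give. Whether the reads cover these genes evenly was not tested.

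**Figure D2:**
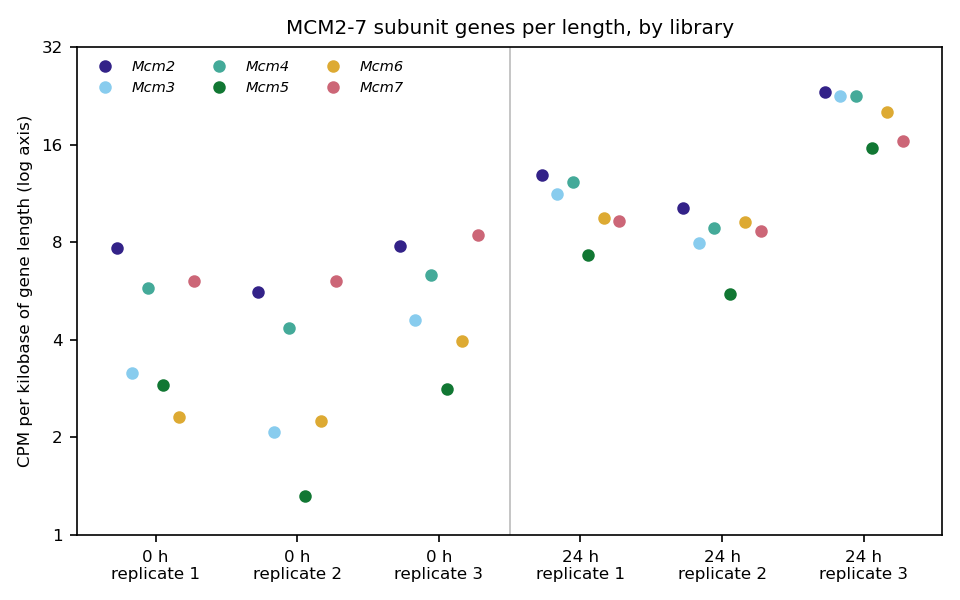
For each of the 6 libraries (x axis) the points give the level of the MCM2-7 subunit genes in CPM per kilobase of gene length on a log axis, 1 colour per gene. The points spread over a ratio of 2.98 to 4.60 in the 0 h libraries and of 1.49 to 1.85 in the 24 h libraries.

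The promoter sequences of MCM genes are shown because the members that rose differ in the words they carry. Each stretch runs 5′ to 3′ on the gene's strand from 180 to 31 bases before the RefSeq start site (GRCm38.p6). Capitals mark the E2F words searched for (TTTCCCGC, TTTCGCGC, TTTGCCGC and TTTGGCGC on either strand, overlaps allowed) and CCAAT or its reverse complement ATTGG, the word bound by NF-Y. Mcm6, chr1:128359736-128359885, minus strand, has 3 E2F words, of which 2 overlap and face each other, and Mcm5, chr8:75109329-75109478, plus strand, has an overlapping pair; Mcm2, chr6:88898811-88898960, minus strand, has CCAAT on the reverse strand and no E2F word in the window.
Mcm6: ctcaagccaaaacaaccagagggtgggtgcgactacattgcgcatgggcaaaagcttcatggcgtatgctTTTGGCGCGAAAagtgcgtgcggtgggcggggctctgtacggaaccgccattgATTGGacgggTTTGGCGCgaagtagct
Mcm5: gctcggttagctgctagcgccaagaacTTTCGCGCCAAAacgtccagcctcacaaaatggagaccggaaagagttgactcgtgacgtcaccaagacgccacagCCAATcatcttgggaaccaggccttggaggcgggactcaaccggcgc
Mcm2: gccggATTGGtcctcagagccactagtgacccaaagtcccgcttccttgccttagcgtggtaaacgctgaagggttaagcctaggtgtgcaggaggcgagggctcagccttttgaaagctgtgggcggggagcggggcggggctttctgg
All 3 genes rose at 24 h, with the values given above.

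The helicase activation genes, Mcm10, Cdc45 and the GINS subunits, had 0 of 5 tested members called in edgeR (1 at an unadjusted p under 0.05). Beside the 15.2% of all tested genes called higher, a count of 0 in so few genes does not set this role apart. Of the 5, 4 had a log2 fold change above 0. Mcm10, which helps the helicase start to unwind, was at 1.20, 1.4 and 2.20 CPM at 0 h and at 2.81, 3.08 and 7.82 CPM at 24 h. Its times did not overlap (log2 1.52 ± 0.54 SE, edgeR adjusted p = 0.0653), and DESeq2 called it (adjusted p = 0.037). Gins4 was at 15, 11.9 and 13.2 CPM at 0 h and at 11.9, 11.3 and 16.7 CPM at 24 h. Its mean hardly moved, with a 95% interval of the log2 value from -0.53 to 0.52. Gins1 did not pass the filter on low counts, at 0.701, 0.601 and 0.732 CPM at 0 h and at 1.66, 0.212 and 3.70 CPM at 24 h, so its groups overlapped and the value of 24 h replicate 2 rests on 2 counts. Cdc45, Gins2 and Gins3 had log2 differences of 0.66 to 0.86 and were not called.

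Of the 5 polymerase and primase genes, Pold1 and Pola2 rose. Beside the 15.2% of all tested genes called higher, 2 calls in so few genes do not set this role apart. Pold1 (chromosome 7, 44532744 to 44548815), the catalytic subunit of polymerase delta, which copies the lagging strand, was at 9.12, 10.7 and 10.01 CPM at 0 h and at 21.0, 16.5 and 31.8 CPM at 24 h. The 0 h libraries were close to each other and all 24 h libraries were above them (2.32-fold, log2 1.21 ± 0.26 SE, edgeR adjusted p = 0.01). Pola2 (chromosome 19, 5940543 to 5964206), the regulatory subunit of the polymerase alpha-primase complex that lays down each primer, was at 6.11, 5.21 and 8.18 CPM at 0 h and at 9.85, 11.4 and 15.4 CPM at 24 h. The 1.88-fold rise (log2 0.91 ± 0.29 SE, edgeR adjusted p = 0.0435) was not called when 0 h replicate 1 (adjusted p = 0.0963), 0 h replicate 2 (0.136), 24 h replicate 2 (0.0709) or 24 h replicate 3 (0.133) was left out. Its catalytic partner Pola1 was not called and was at 28.4, 21.5 and 30.5 CPM at 0 h and at 20.7, 21.6 and 40.5 CPM at 24 h. Its groups overlapped, and the 95% interval of the log2 difference ran from -0.59 to 0.68. Prim1, the catalytic primase subunit, was at 6.21, 5.91 and 5.0 CPM at 0 h and at 7.16, 8.81 and 11.6 CPM at 24 h, apart at the 2 times but not called (log2 0.69 ± 0.29 SE, edgeR adjusted p = 0.109). Pole, the polymerase of the leading strand, had a log2 difference of 0.85, which was -0.27 without 24 h replicate 3 (edgeR adjusted p = 0.34 with all libraries).

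The Pola1 promoter is shown because it holds an E2F word although the gene was not called. The stretch is chrX:93632186-93632335, minus strand, GRCm38.p6, with the E2F word (here as its reverse complement) and the CCAAT word on the reverse strand in capitals.
Pola1: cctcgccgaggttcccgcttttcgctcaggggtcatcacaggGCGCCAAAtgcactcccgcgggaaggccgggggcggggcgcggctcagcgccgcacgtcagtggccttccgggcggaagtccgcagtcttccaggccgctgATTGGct
Its levels in the 24 h libraries, given above, overlapped those at 0 h.

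The sliding clamp gene rose, and of the 5 clamp loader genes 1 did, where 15.2% of all tested genes were called higher. Pcna (chromosome 2, 132249286 to 132253180), the ring that holds polymerases on DNA, was at 42.6, 31.2 and 42.7 CPM at 0 h and at 67.1, 77.0 and 97.6 CPM at 24 h. Its 24 h libraries were all above its 0 h libraries (2.08-fold, log2 1.05 ± 0.19 SE, edgeR adjusted p = 0.00401). Rfc2 (chromosome 5, 134582690 to 134598328), a small subunit of the clamp loader, was at 20.1, 18.2 and 17.7 CPM at 0 h and at 26.6, 25.7 and 36.1 CPM at 24 h. Its 1.58-fold rise (log2 0.66 ± 0.19 SE, edgeR adjusted p = 0.0296) lost its call without 0 h replicate 2 (adjusted p = 0.088), 0 h replicate 3 (0.0867) or 24 h replicate 3 (0.0996). Rfc4, another small subunit, was at 1.80, 3.41 and 1.34 CPM at 0 h and at 3.20, 4.67 and 6.13 CPM at 24 h, and its groups overlapped (log2 1.09 ± 0.48 SE, edgeR adjusted p = 0.124). Rfc5 was at 6.11, 7.41 and 9.27 CPM at 0 h and at 4.60, 5.73 and 10.7 CPM at 24 h (log2 -0.11 ± 0.37 SE, edgeR adjusted p = 0.857). The groups overlapped here too, with 24 h replicate 3 at the top and 24 h replicate 1 at the bottom. Rfc1, the large subunit, and Rfc3 had log2 differences of -0.12 and 0.66.

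Genes for single-strand DNA binding, Okazaki fragment maturation and nucleotide supply had 0 of 9 members called in edgeR, DESeq2 or limma-voom. Of all tested genes 15.2% were called higher in edgeR, so with so few genes this count does not set these roles apart. An unadjusted edgeR p under 0.05 was found for 0 of 9. The replication protein A genes Rpa1, Rpa2 and Rpa3, whose product coats unwound DNA, had a median log2 fold change of -0.02. Rpa2 was at 13.1, 9.72 and 15 CPM at 0 h and at 10.7, 9.98 and 17.6 CPM at 24 h, and Rpa3 was at 2.91, 3.81 and 3.17 CPM and at 1.53, 3.08 and 4.55 CPM. Rpa1, the large subunit, had a 95% interval of the log2 difference from -0.36 to 0.33. All 3 overlapped between the times. Fen1, the nuclease that trims Okazaki fragments, was at 7.42, 5.81 and 6.22 CPM at 0 h and at 7.80, 6.58 and 17.7 CPM at 24 h (edgeR adjusted p = 0.212). Lig1, the ligase that joins them, was at 19.0, 20.5 and 23.9 CPM at 0 h and at 20.6, 20.0 and 39.97 CPM at 24 h (edgeR adjusted p = 0.402). In both genes 24 h replicates 1 and 2 lay among or near the 0 h libraries and only 24 h replicate 3 stood clearly above them.

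Rrm2 and Tk1 belong to the enzymes that make DNA precursors in S phase. Rrm2, the small subunit of ribonucleotide reductase, was at 5.61, 2.71 and 10.86 CPM at 0 h and at 4.09, 2.34 and 21.4 CPM at 24 h. Its highest library at each time was replicate 3, and the log2 difference of 0.55 (95% interval -1.26 to 2.36) was -0.99 without 24 h replicate 3. Tk1, thymidine kinase, was at 3.21, 1.70 and 4.27 CPM at 0 h and at 2.81, 1.49 and 4.44 CPM at 24 h, with overlapping groups (log2 -0.06 ± 0.53 SE, edgeR adjusted p = 0.946). Rrm1, the large subunit of the reductase, and thymidylate synthase, Tyms, had log2 differences of 0.11 and 0.08. A processed copy of Tyms has a row of its own, so reads could be split between the pair.

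In the last role, Uhrf1 and Ung rose, 2 of 5 genes. That is too few to set the role apart from the 15.2% of all tested genes called higher. Uhrf1 (chromosome 17, 56303337 to 56323486), which brings the maintenance methyltransferase to newly copied DNA, was at 6.71, 6.01 and 12.8 CPM at 0 h and at 20.8, 19.9 and 64.0 CPM at 24 h. The groups did not overlap, and the rise was 4.13-fold (log2 2.05 ± 0.50 SE, edgeR adjusted p = 0.0169). Leaving out 0 h replicate 1 or 0 h replicate 2 ended the call (adjusted p = 0.0691 and 0.0605), and without 24 h replicate 3 the log2 difference was 1.27. Ung (chromosome 5, 114130435 to 114139321), which removes uracil from DNA, was at 1.3, 1.00 and 1.10 CPM at 0 h and at 2.43, 2.65 and 8.67 CPM at 24 h. It rose 4.02-fold from about 1 CPM (log2 2.01 ± 0.60 SE, edgeR adjusted p = 0.0365), but only the versions without 24 h replicate 1 or 24 h replicate 2 kept the call when 1 library was left out. Without 24 h replicate 3 its log2 difference was 1.16 (adjusted p = 0.168), and without 0 h replicates 1, 2 or 3 the adjusted p was 0.0854, 0.108 and 0.101. Chaf1a, the large subunit of the histone chaperone CAF-1, was at 4.41, 5.01 and 7.69 CPM at 0 h and at 7.93, 8.39 and 17.3 CPM at 24 h. Its groups did not overlap and it was not called (log2 0.98 ± 0.39 SE, edgeR adjusted p = 0.0913). Slbp, which binds the stem-loop of histone mRNAs, was at 19.4, 17.1 and 15.7 CPM at 0 h and at 17.3, 17.9 and 27.4 CPM at 24 h (log2 0.26 ± 0.23 SE, edgeR adjusted p = 0.435). Chaf1b had a log2 difference of 1.11 with overlapping groups.

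**Figure D3:**
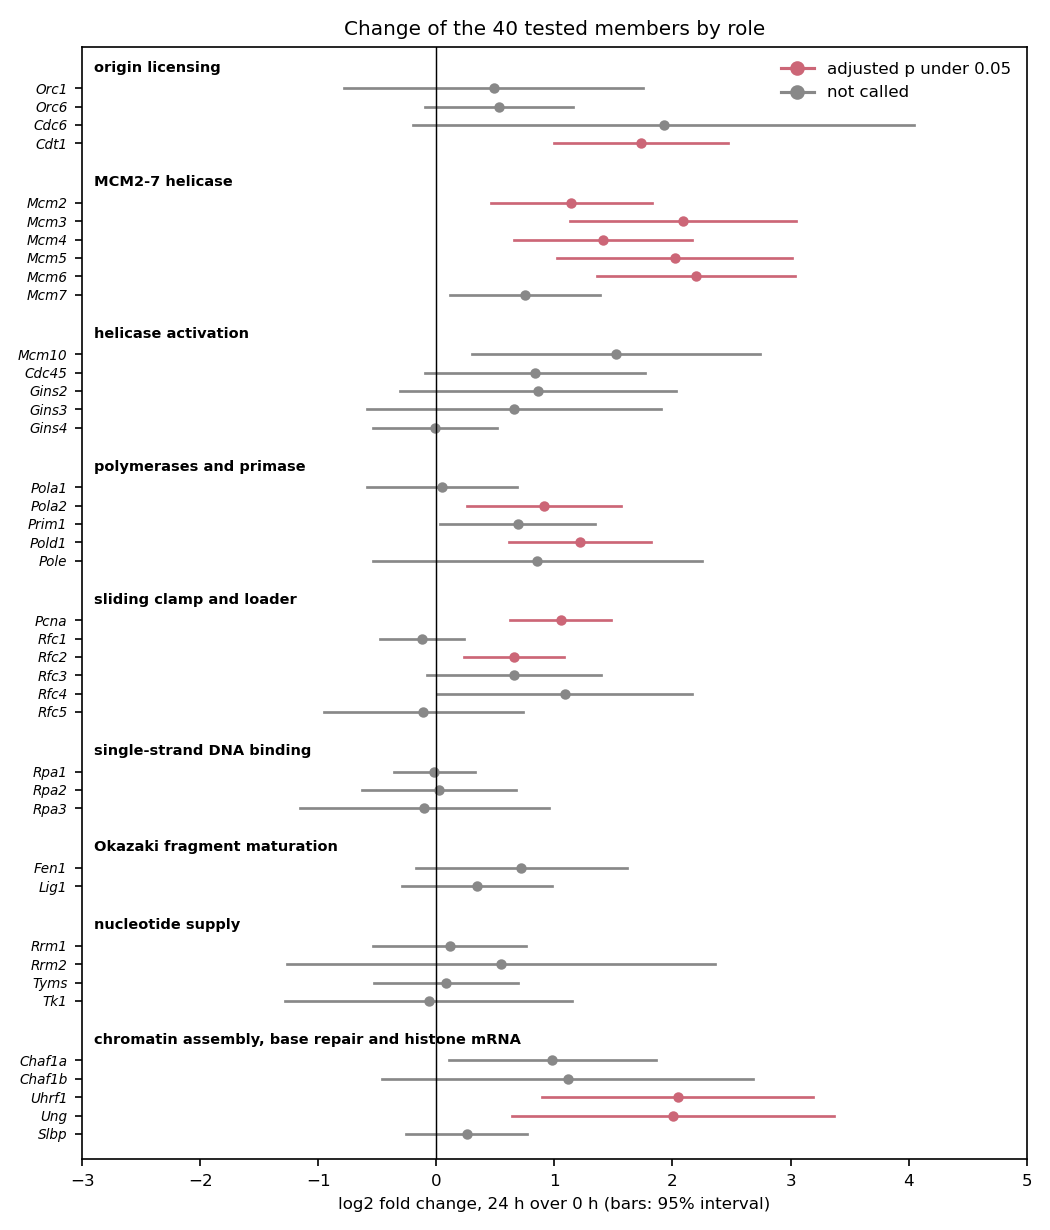
Points give the log2 fold change (24 h over 0 h) of the 40 tested genes and bars its 95% interval, grouped by role; red marks an edgeR adjusted p under 0.05. The MCM2-7 genes hold 5 of the 12 red points, and the single-strand binding, Okazaki and nucleotide supply genes hold 0. Each role has few genes, and 15.2% of all tested genes were called higher.

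By role, the summed CPM of the MCM2-7 genes was 86.9, 66.1 and 104 at 0 h and 195, 155 and 376 at 24 h, a ratio of means of 2.83. The ratios were 2.16 for licensing, 2.18 for the chromatin, base repair and histone mRNA group and 1.37 for the clamp and loader, without overlap. They were 1.52 for polymerases and primase, 1.43 for helicase activation, 1.36 for Okazaki maturation, 1.11 for nucleotide supply and 0.990 for single-strand binding. In these roles the sums overlapped between the times. Polymerases and primase summed to 59.0, 48.1 and 63.7 CPM at 0 h and 66.8, 63.4 and 129 CPM at 24 h. Helicase activation summed to 23.7, 22.4 and 25.7 CPM and to 27.9, 24.5 and 50.2 CPM. Okazaki maturation summed to 26.5, 26.4 and 30.1 CPM and to 28.4, 26.6 and 57.6 CPM. Summed over all 41 genes the level was 603, 481 and 616 CPM at 0 h and 732, 681 and 1256 CPM at 24 h. The means were 567 ± 74.7 and 889.7 ± 318 CPM (SD, n = 3 each), every 24 h library was above every 0 h library, and the exact two-sided permutation p was 0.1, the smallest possible. The 28 tested genes not called summed to 440, 353 and 435 CPM at 0 h and 399, 383 and 645 CPM at 24 h. Those sums overlapped between the times, but the genes were picked by their calls in the same libraries. In bulk RNA, more cells that express these genes and more RNA per cell cannot be told apart.

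One library set most of the spread at 24 h. 24 h replicate 3 had the highest level of the 24 h libraries in 40 of 41 genes and the highest of all 6 libraries in 38, where it was the highest of the 24 h libraries in 35.2% of all tested genes. The exception at 24 h was Orc6, which was highest in replicate 2. Its level over the mean of 24 h replicates 1 and 2 had a median of 1.92 over the members, of 2.08 over the called members and of 0.995 over all tested genes. That ratio was largest for Rrm2 (6.64), Cdc6 (6.05) and Pole (4.50) and smallest for Rpa1 (1.06), Orc6 (1.08) and Rfc1 (1.31). At 0 h, replicate 3 was the highest library in 23 of 41 members, beside 34.9% of all tested genes. Replicate 2 was the lowest in 27 of 41, beside 37.8%. Those 2 libraries had the lowest and the highest summed photoreceptor markers at 0 h, as 24 h replicates 3 and 2 did at 24 h. The 24 h replicate 3 library also had the highest sums of neutrophil and of monocyte and macrophage markers and the highest Krt12, a corneal keratin, at 35.6 CPM. The tested neutrophil markers were divided. Csf3r, Cxcr2 and Mmp9 were highest in 24 h replicate 3, but S100a8, S100a9 and Retnlg in 24 h replicate 2. S100a9 was at 10.2, 29.0 and 23.7 CPM in the 24 h libraries. The part of these other cells in the members' levels was not tested. Without 24 h replicate 3, 9 members were called higher (Cdt1, Mcm2, Mcm3, Mcm4, Mcm5, Mcm6, Pold1, Pcna and Uhrf1) and 13 tested members had a log2 difference below 0. Krt12 was at 9.46 and 0.212 CPM in 24 h replicates 1 and 2. With the mean log2 level of the photoreceptor markers as a covariate the same 9 genes were called.

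**Figure D4:**
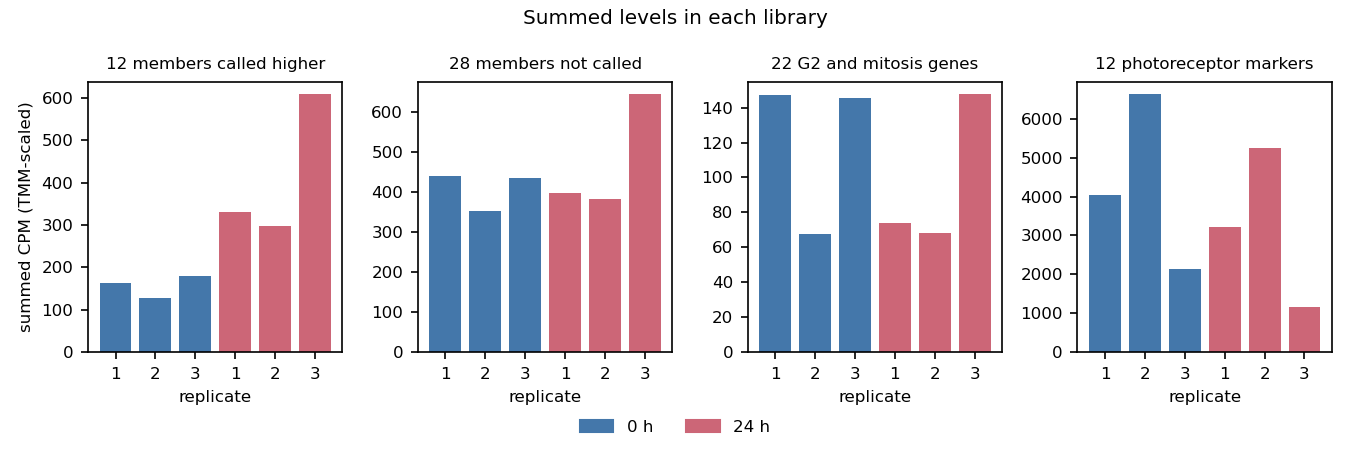
Bars give summed CPM (TMM-scaled, linear axis from 0) in each library for the 12 called genes, the 28 genes not called, 22 G2 and mitosis genes and 12 photoreceptor markers, at 0 h (blue) and 24 h (red) for replicates 1 to 3. The called genes sum to 127 to 180 CPM at 0 h and 298 to 608 CPM at 24 h. Called and uncalled genes were sorted by their calls in these same libraries, so the gap between their sums is no separate result. The mitosis and photoreceptor sums, like that of the uncalled genes, overlap between the times.

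Genes that act around the replication machinery were read from 4 further lists. Of 43 tested other replication genes, 8 were higher (18.6%, beside 15.2% of all tested genes) and 0 lower in edgeR; at an unadjusted p under 0.05 the counts were 13 and 0. Dnmt1, the maintenance DNA methyltransferase, was at 62.6, 63.0 and 65.4 CPM at 0 h and at 111, 94.6 and 134 CPM at 24 h (log2 0.83 ± 0.15 SE, edgeR adjusted p = 0.00443). Prim2, the regulatory primase subunit and partner of Prim1, was at 3.21, 2.40 and 2.56 CPM at 0 h and at 9.85, 6.80 and 10.3 CPM at 24 h (log2 1.71 ± 0.32 SE, edgeR adjusted p = 0.00512). Neither gene overlapped between the times. The count was 3 without 0 h replicate 2, 3 without 24 h replicate 3 and 4 without 0 h replicate 1.

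Of 28 tested E2F and G1/S regulators, 8 were higher (28.6%, beside 15.2% of all tested genes) and 4 lower (14.3%, near the share of all tested genes, where 1817 of 13956 were lower). Myc, a growth-promoting transcription factor, was at 3.81, 7.41 and 4.51 CPM at 0 h and at 44.4, 52.4 and 33.9 CPM at 24 h (log2 3.05 ± 0.29 SE, edgeR adjusted p = 0.000215). Cdkn1a, which encodes the CDK inhibitor p21, a protein that can also bind PCNA, was at 1.5, 2.5 and 1.34 CPM at 0 h and at 31.3, 72.6 and 26.8 CPM at 24 h (log2 4.59 ± 0.47 SE, edgeR adjusted p = 0.000307). Both genes rose in every 24 h library, and in Cdkn1a 24 h replicate 2 was highest. Cdkn1c, the CDK inhibitor p57, fell from 129, 85.0 and 81.4 CPM to 27.2, 31.1 and 31.9 CPM (log2 -1.71 ± 0.20 SE, edgeR adjusted p = 0.000538). Tfdp2, an E2F partner, fell from 49.1, 61.3 and 56.0 CPM to 16.1, 16.2 and 25.9 CPM (log2 -1.51 ± 0.21 SE, edgeR adjusted p = 0.00133). E2f1, an activator of S-phase genes, was at 6.11, 4.31 and 5.25 CPM at 0 h and at 7.55, 7.86 and 16.9 CPM at 24 h. Its groups did not overlap, and it was not called (log2 1.05 ± 0.37 SE, edgeR adjusted p = 0.0688), while DESeq2 called it higher (adjusted p = 0.0404). The E-type cyclins, which switch on CDK2 at the start of S phase, were not called: Ccne1 had a log2 difference of 0.87 ± 0.58 SE and Ccne2 of 0.21 ± 0.74 SE (edgeR adjusted p = 0.309 and 0.867). Ccnd1, cyclin D1, was at 274, 373 and 328 CPM at 0 h and at 158, 246 and 237 CPM at 24 h (log2 -0.60 ± 0.21 SE, edgeR adjusted p = 0.0578), and DESeq2 called it lower (adjusted p = 0.0263). The list's count of higher genes was 5 without 0 h replicate 2 or 0 h replicate 3.

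Of the genes of G2 and mitosis, 0 of 21 tested were higher (beside 15.2% of all tested genes) and 1 was lower in edgeR. Their median log2 fold change was -0.19. At an unadjusted p under 0.05 the counts were 0 higher and 1 lower, and DESeq2 and limma-voom also called 0 higher. Mki67, a marker of cycling cells, was at 33.6, 11.2 and 34.7 CPM at 0 h and at 13.2, 8.39 and 29.7 CPM at 24 h. The times overlapped (log2 -0.63 ± 0.52 SE, edgeR adjusted p = 0.412), but with the photoreceptor covariate it was called lower (log2 -1.21, adjusted p = 0.0135). Aurka, a mitotic kinase, was at 3.21, 2.71 and 3.78 CPM at 0 h and at 1.02, 1.27 and 1.27 CPM at 24 h (log2 -1.43, edgeR adjusted p = 0.0375), a call that ended with any library left out (adjusted p from 0.0748 to 0.148). The summed CPM of all 22 listed genes was 147, 67.6 and 145 at 0 h and 73.7, 68.1 and 148 at 24 h. Dividing the sum of the 41 replication genes by this sum gave 4.10, 7.11 and 4.23 at 0 h and 9.93, 10.01 and 8.51 at 24 h (5.15 ± 1.70 against 9.48 ± 0.843, SD, n = 3 each). The 24 h ratios all lay above the 0 h ratios, 24 h replicate 3 included, and the exact two-sided permutation p was 0.1, the smallest possible. Of 14 replication stress genes 2 were higher (14.3%), near the 15.2% of all genes: Rad9a, of the checkpoint clamp (log2 0.96 ± 0.17 SE, edgeR adjusted p = 0.00361), and Chek1, the kinase downstream of it, at 1.4, 0.601 and 1.34 CPM at 0 h and 2.30, 2.97 and 8.25 CPM at 24 h (log2 2.01 ± 0.62 SE, edgeR adjusted p = 0.0414). The Chek1 call ended without 24 h replicate 3 (adjusted p = 0.174) or without any 0 h library.

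Promoters of the members held E2F words at a higher share than promoters at large. RefSeq windows (GRCm38.p6, 250 bases before to 50 after the start) were matched by symbol for 35 of the 41 genes. The E2F words spelled out above were in the windows of 13 of the 35 (37.1%), and in those of 3.29% of 17492 protein-coding genes and 2.27% of all 32851 windows. The 13 genes were Orc1, Cdc6, Cdt1, Mcm3, Mcm5, Mcm6, Mcm7, Gins3, Pola1, Pold1, Rfc3, Lig1 and Uhrf1. Among members with a window, 6 of 10 called genes and 7 of 25 others held such a word. CCAAT was in 65.7% of the members' genes and in 42.3% of coding genes. TTTGAA, the CHR word of G2 and mitosis promoters, was in 11.4% of the members and in 18.5% of coding genes. These are counts of letters in a window, not of sites that a factor binds, and they were not tested. In Mcm6 the E2F words began 110, 106 and 47 bases before the start, in Mcm5 153 and 149, and in Pola1 138, while in Mcm3 they began 19 and 38 bases after it.

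**Figure D5:**
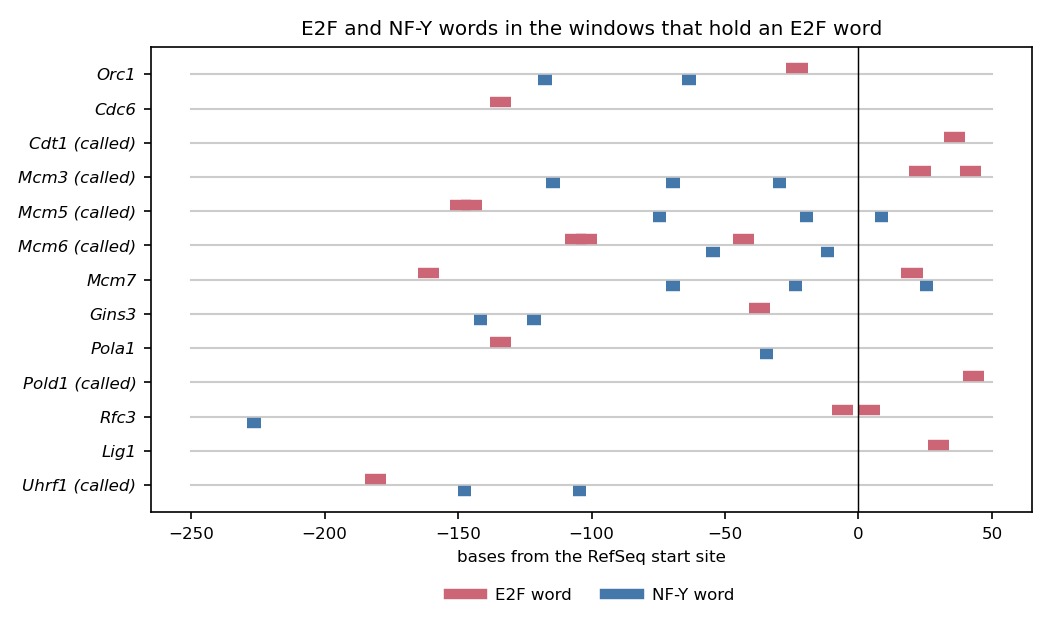
Lines are promoter windows of the 13 genes that hold an E2F word, on an axis of bases from the RefSeq start site (0); red marks E2F words and blue NF-Y words (CCAAT or its reverse complement). E2F words lie on both sides of the start site, and called and uncalled genes both appear.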

How the data were processed

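The authors deposited, per the file headers, 1 table per library with a count and an RPKM value for each gene, its position and its coding length. The deposited counts are whole reads per gene; the deposited RPKM values equal the count divided by length and library total and were used only as a check. Of the lengths, 37.7% are multiples of 3, so they are not coding lengths alone. Build mm10 and the tools TopHat2 2.1.0, HTSeq 0.6.1p1, SAMtools 1.4, bedtools 2.17, Trim Galore 0.4.4, edgeR 3.16.5 and FastQC come from the submitters' processing notes, which give neither role nor order. Neither the annotation nor the strand setting is stated in the sources used here, and the labels name both an unstranded and a stranded kit. Reads of Gins2 and Gse1, Rfc4 and Eif4a2, Lig1 and 6330408A02Rik, or Tk1 and Afmid, whose spans overlap, may therefore not be separable.

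Counts were fitted with edgeR 4.0.16 (R 4.3.3): filterByExpr, TMM, quasi-likelihood test of 24 h against 0 h over all 6 libraries, two-sided, Benjamini-Hochberg adjustment over 13956 genes. A gene was called at an adjusted p under 0.05. The steps were run on counts simulated independently for each gene, with the same spread for all and changes only in better-expressed genes. That run does not cover genes near the floor or a library that raises many members together. The biological coefficient of variation was 25.1%, and 3 counts correspond to 0.301 to 0.384 CPM, which covers counting error only. No pair of libraries from the same time agreed within sampling noise. Alternatives were DESeq2 1.42.0, limma-voom 3.58.1, library totals or DESeq2 size factors, other filters, a test against 1.5-fold, a replicate block, a photoreceptor covariate and leaving out each library.

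The 41 members, their roles and the 14 other lists were chosen with earlier results of these data known, and no list was tested as a set. Of 236 genes in all lists, members included, 234 matched a row (Ly6g and Adgre1 did not). Values per library are given for called members and, in each role, for the uncalled members with the lowest and highest p; in other lists the 2 called genes with the lowest p in each direction and 7 fixed genes are named, and in marker lists the 2 most abundant, of which 1 is not reported here. Krt12, Elane, Rn45s, S100a8, S100a9, Retnlg and Mmp9 were singled out after their values were seen. The permutation test was planned for the sum over all 41 members only. Its p for the MCM2-7 ratio and for the ratio to mitosis genes is a description. Promoters come from RefSeq.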

Additional observations from a re-analysis of the deposited data

How the results depend on the processing

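With all 15 alternatives, Cdt1, Mcm3, Mcm5, Mcm6 and Pcna stayed called, the number of members called lower was 0, and the log2 differences of the 12 called genes ranged from 0.49 to 2.53. The number of members called higher was 13 with DESeq2, 11 with limma-voom, 9 with the photoreceptor covariate, 6 when the change had to exceed 1.5-fold (Cdt1, Mcm3, Mcm5, Mcm6, Pcna and Uhrf1) and 6 to 12 when 1 library was left out, with 6 without 0 h replicate 2. The ratio of the members' summed CPM was 1.57, and 1.25 to 1.75 when 1 library was left out.

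Same-numbered libraries of the 2 times had correlations of 0.0866, 0.215 and 0.397 in their deviations. Each 0 h library correlated best with the 24 h library of the same number. Seen from 24 h, replicate 1 departed from this and correlated best with 0 h replicate 2 (0.172). The labels do not tie same-numbered samples, so the main fit did not pair them. Whether such samples share an origin or batch was not tested. With a replicate block 16 members were called, adding Cdc6, Mcm7, Mcm10 and Chaf1a. In that fit 7 G1/S regulators were lower and 0 mitosis genes were.

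Against 1.5-fold the counts were 2 other replication genes higher, 4 G1/S regulators higher and 2 lower, 0 mitosis genes lower and 0 stress genes higher. With 1 library left out they were 3 to 8, 5 to 7, 3 to 3, 0 to 0 and 1 to 2. The 1 lower mitosis gene became 0 with limma-voom, library totals or no filter and 2 with the photoreceptor covariate; stress genes became 1 with limma-voom or that covariate. The causes were not tested. Library totals moved the median of all genes to a log2 of 0.06 and called 12 members. Gins1 failed the low-count filter and was tested, but not called, without it.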
